A study of Mus musculus with 20 samples.

Results

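CD8 T cells that had been given antigen, B7-1 and type I interferon for 48 h were compared with unstimulated naive cells across every gene that the array's annotation names. The labels put 3 arrays in the interferon group, written Ag-B7+IFNa/b, and 3 in the naive group, so that 6 of the 20 arrays of the series entered the comparison. Of 8251 named genes, 6279 passed a filter on low signal and were tested. The question was which genes differed between the interferon effectors and naive cells, and whether interferon genes exceeded their naive level or only regained it.

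The RNA came from CD44-low CD8 T cells of OT-1 T cell receptor transgenic C57Bl6 mice, 6 to 8 weeks old, obtained from lymph nodes by negative enrichment. The OT-1 receptor recognises an ovalbumin peptide held by the class I molecule H-2Kb. Stimulated cells met that complex and B7-1, a ligand of the costimulatory receptor CD28, on latex microspheres, and all their cultures held human IL-2. The Ag-B7+IFNa/b cultures also held universal type I interferon, the Ag-B7+IL12 cultures (3 arrays at 48 h) murine IL-12, and the Ag-B7 cultures (4 arrays at 48 h) neither. Naive cells were taken at 0 h with no stimulating agent. In the difference from naive, therefore, antigen, B7-1, IL-2, interferon and time in culture cannot be told apart, and only the Ag-B7 arrays set the interferon apart from the rest. The labels call the replicates biological and do not say whether each came from 1 mouse or from pooled mice.

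Type I interferons bind a receptor of the chains IFNAR1 and IFNAR2, whose kinases JAK1 and TYK2 phosphorylate STAT proteins. These STAT proteins join IRF9 and switch on interferon-stimulated genes, many of which block steps of virus replication. Naive lymphocytes hold part of this program through a low, tonic interferon signal, and IRF7, USP18 and ISG15 are among the genes that amplify it or restrain it. For naive CD8 T cells, antigen and costimulation drive division, while a cytokine such as IL-12 or type I interferon serves as the third signal for full effector function.

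Each array holds 1 MAS5 signal per probe set on a linear scale, given below as the intensity. Differences were taken on log2(intensity + 46.4), which understates the change of dim genes, and fold changes are on that scale too. Errors after ± are standard errors from limma, and a gene is called when its Benjamini-Hochberg adjusted p over all 6279 genes is below 0.05. The naive arrays were the less uniform group: they correlated with each other at 0.827 to 0.932 over the genes tested, against 0.959 to 0.966 within the Ag-B7+IFNa/b group. Their ratio of 3' to 5' actin signal, a sign of RNA quality, was 1.13 to 2.06, against 1.00 to 1.11. All arrays had a trimmed mean of 1000.46 to 1000.74, with 2% cut at each end, while the median intensity was 364 to 507 on naive arrays and 244 to 285 on Ag-B7+IFNa/b arrays. In bulk RNA such as this, fewer cells of a type and less RNA per cell cannot be told apart.

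Between naive cells and interferon effectors, most of the measured transcriptome differed: 3664 genes were called (58.4%), of which 1587 were higher (25.3%) and 2077 lower (33.1%) with Ag-B7+IFNa/b. The median gene lay at -0.25. The split rests on the scaling: higher genes made up 43.3% of the calls on the deposited values, 54.6% after quantile normalization, 73.2% after median centring and 98.1% when arrays were scaled by their 9 spiked-in control probe sets. The median gene moved with it, to 0.01, 0.37 and 1.39. The mean log2 intensity of the spiked-in controls (BioB, BioC, BioDn and CreX) was 13.39, 14.86 and 14.53 on the naive arrays. On the Ag-B7+IFNa/b arrays it was 12.75, 12.28 and 12.14. Spike-in scaling therefore also carries the spread of these controls among the naive arrays. It is used as an alternative scaling of the arrays, and whether it follows the amount of RNA per cell was not tested. Every count below is for the deposited scaling unless another is named. For any list below, the shares of all genes to compare are 25.3% higher and 33.1% lower. Under spike-in scaling they are 60.8% and 1.15%. Ag-B7 alone differed from the same naive arrays at 3876 genes (61.7%, 26.1% higher and 35.6% lower). The 2 comparisons share those arrays, so a gene's values from both are given side by side and their likeness is not counted as a result.

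**Figure D1:**
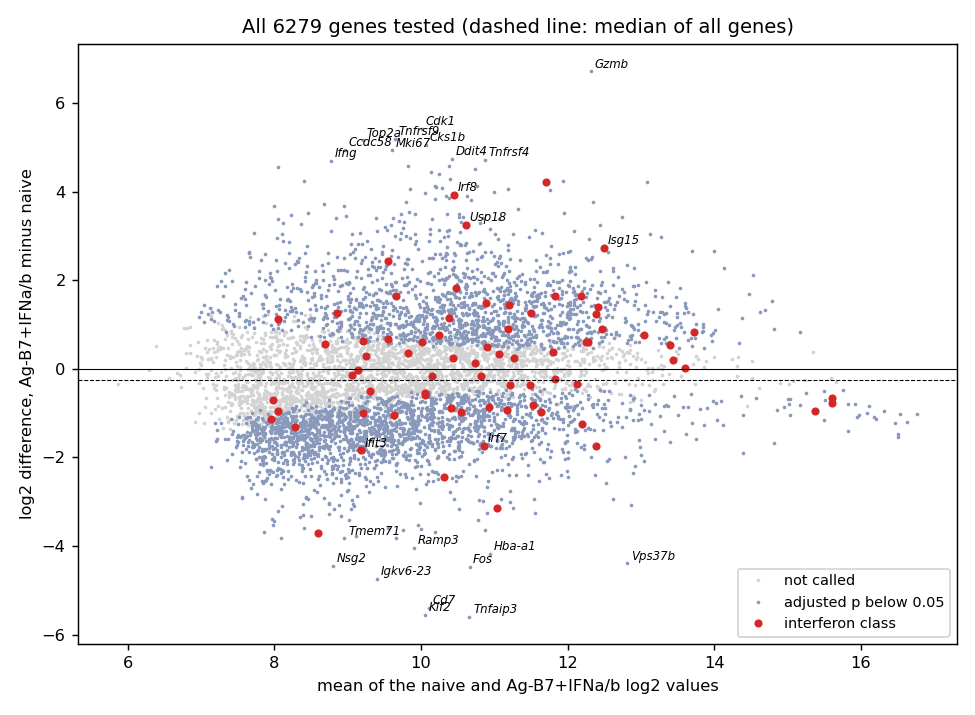
Each point is 1 of the 6279 genes, with the mean of its naive and Ag-B7+IFNa/b log2 values on the x axis and the log2 difference, Ag-B7+IFNa/b minus naive, on the y axis. Blue points passed an adjusted p of 0.05, grey ones did not, red points are the interferon genes, and the dashed line is the median gene at -0.25. Gzmb at 6.72 lies highest and Tnfaip3 at -5.59 lowest among the labelled genes.

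The interferon genes were called above or below their naive level, or were not called. Of 127 genes in 8 lists of the interferon system, 76 were on the array under a single symbol and 72 were tested. With Ag-B7+IFNa/b, 22 of these 72 were called higher than naive, 20 lower and 30 not called. Both counts are near the shares of all genes, 25.3% higher and 33.1% lower. The median of the 72 was 0.22 beside -0.25 for all genes. With Ag-B7 alone 9 were higher and 40 lower, beside 26.1% and 35.6% of all genes. The median was -0.78 beside -0.23 for all genes. In the direct comparison of the interferon cultures with Ag-B7 alone, 27 of all genes differed (0.43%), 26 of them higher (0.414%), and 17 of those 26 belonged to the interferon lists. Without Ag-B7+IFNa/b replicate 2 the 26 became 14.

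Those 17 genes give 3 answers to the question. Against naive cells, 7 were called higher (Usp18, Isg15, Ifitm3, Isg20, Ifi35, Trim30a and Lgals9), 7 were not called (Rsad2, Mx1, Ifih1, Adar, Ifit1, Mx2 and Lgals3bp) and 3 were called lower (Irf7, Ifit3 and Slfn1). All of them but Ifi35 had been called lower than naive on Ag-B7 alone. Of the 40 interferon genes that were lower than naive on Ag-B7 alone, 6 were above naive with interferon, 15 were not called and 19 were still below. On all genes the same count was 8 of 2236 (0.358%) above naive. Lower on Ag-B7 alone and higher with interferon than with Ag-B7 were 22 of all genes (0.35%), which is 84.6% of the 26 raised genes. Of those 26, 12 were above naive (46.2%) and 3 below (11.5%). Both the 26 and the 17 were picked by their difference from Ag-B7 on these same arrays. That choice favours genes with low Ag-B7 values and high interferon values, so the counts only describe the picked genes.

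**Figure D2:**
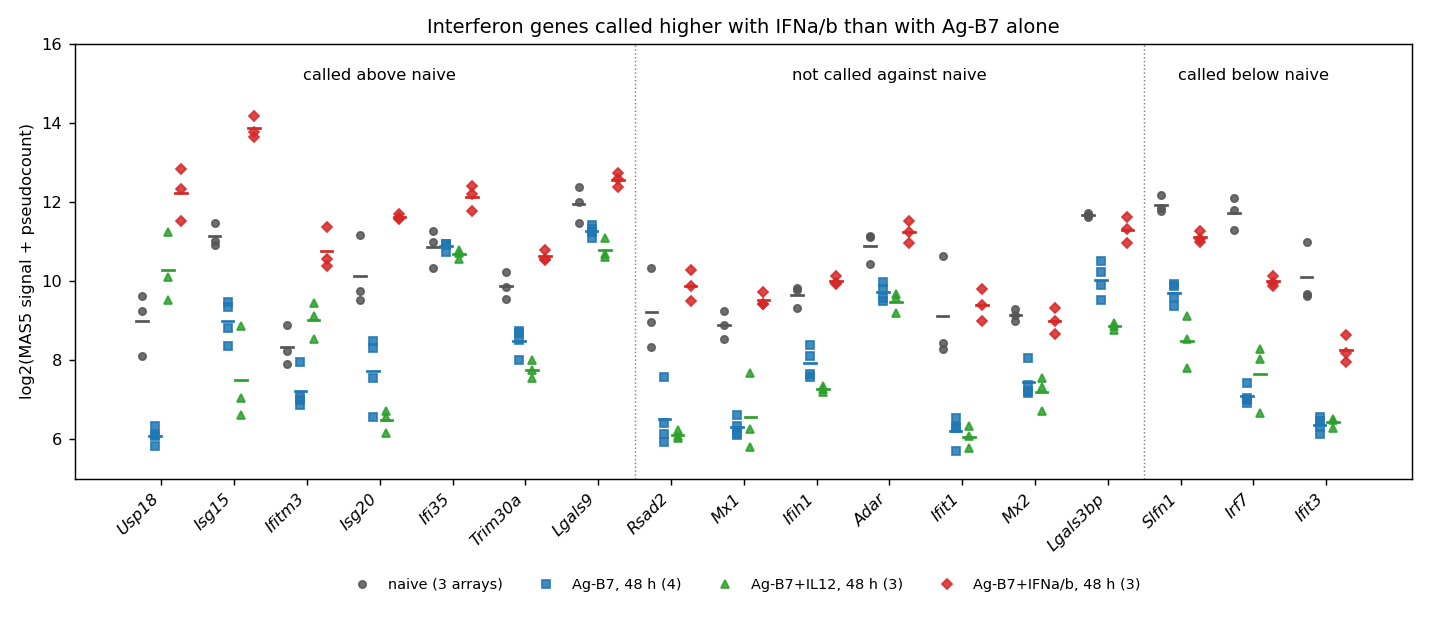
The log2 value on every replicated array is shown for the 17 interferon genes called higher with Ag-B7+IFNa/b than with Ag-B7 alone, in the 3 classes above, not called and below against naive. Points are single arrays and short bars are group means. The red diamonds of Usp18, Isg15 and Ifitm3 lie above all naive points, and those of Irf7, Ifit3 and Slfn1 lie below all naive points.

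The promoters of 5 of these genes are shown, drawn from all 3 classes. They are the 250 bases before the RefSeq start on GRCm38.p6, or for Ifitm3 a short stretch just after the start, printed 5' to 3' on the gene's strand. Capitals mark the core of the interferon-stimulated response element, which STAT and IRF proteins bind: GAAA, any 2 bases and GAAA again, on either strand. The matches in Isg15 overlap each other, and in Ifitm3 a match overlaps TTCNNNGAA, the gamma-activated site, where N is any base.
Isg15, above naive, chr4:156200819-156201068, minus strand: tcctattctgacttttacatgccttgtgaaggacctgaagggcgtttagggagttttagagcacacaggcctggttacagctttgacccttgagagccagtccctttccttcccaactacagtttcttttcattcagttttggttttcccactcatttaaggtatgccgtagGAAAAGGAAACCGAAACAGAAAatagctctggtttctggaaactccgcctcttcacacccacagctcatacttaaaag
Ifitm3, above naive, chr7:141010716-141010742, minus strand: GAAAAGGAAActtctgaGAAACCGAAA
Rsad2, not called against naive, chr12:26456453-26456702, minus strand: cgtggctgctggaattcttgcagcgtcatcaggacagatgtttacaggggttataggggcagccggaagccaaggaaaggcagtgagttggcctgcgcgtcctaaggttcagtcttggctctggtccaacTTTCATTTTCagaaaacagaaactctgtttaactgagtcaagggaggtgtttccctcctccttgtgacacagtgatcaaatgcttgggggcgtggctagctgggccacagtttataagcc
Ifit1, not called against naive, chr19:34640639-34640888, plus strand: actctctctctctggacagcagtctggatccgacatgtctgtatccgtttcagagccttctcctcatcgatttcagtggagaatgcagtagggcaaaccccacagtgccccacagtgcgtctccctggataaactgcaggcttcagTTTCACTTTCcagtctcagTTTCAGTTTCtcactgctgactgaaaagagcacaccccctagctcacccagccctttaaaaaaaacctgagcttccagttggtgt
Irf7, below naive, chr7:141266425-141266674, minus strand: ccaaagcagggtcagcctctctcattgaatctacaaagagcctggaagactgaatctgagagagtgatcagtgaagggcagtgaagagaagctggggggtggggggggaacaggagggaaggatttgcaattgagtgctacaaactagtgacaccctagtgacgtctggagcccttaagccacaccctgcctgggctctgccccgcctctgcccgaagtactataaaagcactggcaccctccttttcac

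Isg15 held 3 matches that begin 78, 72 and 66 bases before the start, Ifit1 held 2 at 104 and 85 bases, and Rsad2 held 1 at 120 bases. Ifitm3 held 2, beginning 3 and 20 bases into the transcript. No match was in this window of Irf7, a promoter added after its values were seen. The table of promoters held 14 of the 17 genes, leaving out Usp18, Mx1 and Mx2. The response element core occurred in windows of 300 bases for 8 of those 14 (57.1%), for 13 of 48 interferon genes that were not raised over Ag-B7 (27.1%), and for 3.99% of all genes in the table. By class, 4 of 6 genes above naive, 3 of 5 not called and 1 of 3 below (Ifit3) held it. Without it were Isg20 and Ifi35 above naive, Adar and Lgals3bp not called, and Irf7 and Slfn1 below. The 5 printed promoters therefore do not set the classes apart. TTCNNNGAA occurred for 4 of the 14 (28.6%), for 14 of the 48 (29.2%) and for 9.55% of all genes, so its share was about the same in raised and other interferon genes. A match is a description of the letters and not a sign of binding.

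Usp18, a protease that removes ISG15 from proteins and shuts down the interferon receptor, stood farthest above its naive level among these 17 genes. Its intensity was 736, 228 and 555 in naive cells, 10.1 to 34.2 on the 4 Ag-B7 arrays, and 7301, 5116 and 2906 with interferon. No array of one group overlapped with another. For comparison, the naive and interferon arrays were apart, with interferon higher, at 26.9% of all genes, and with interferon lower at 35.4%. For Usp18 the dimmest interferon array was brighter than every naive one. It rose 9.53-fold over naive (3.25 ± 0.44 in log2, limma adjusted p = 1.8e-05), and the rise over Ag-B7 was 70.9-fold (6.15 ± 0.41, limma adjusted p = 3.2e-07). Usp18 was also measured at 2359, 692 and 1054 with IL-12, between Ag-B7 and interferon, and interferon still exceeded IL-12 by 1.95 ± 0.44.

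Isg15, a ubiquitin-like protein that is conjugated to viral and host proteins, was lower than naive on Ag-B7 alone and well above naive with interferon. Naive cells gave 2781, 2034 and 1885, Ag-B7 gave 281 to 657, and Ag-B7+IFNa/b gave 18499, 13874 and 12842. The 3 groups were fully separate. The rise over naive was 6.64-fold (2.73 ± 0.44, limma adjusted p = 8.01e-05), and Ag-B7 alone lay 4.42-fold below naive. The related gene Gm9706, an Isg15-like locus whose probe set may not tell it from Isg15, ran in parallel and rose 11.3-fold over naive.

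Ifitm3, a membrane protein that hinders virus entry, was 426, 255 and 192 in naive cells and 2602, 1472 and 1277 with interferon, a 5.39-fold rise (2.43 ± 0.38, limma adjusted p = 6.77e-05). Ag-B7 alone gave 70.4 to 202, overlapping the lowest naive array. Not every family member did so: Ifitm1 was 362, 722 and 329 in naive cells and 115, 210 and 134 with interferon, a fall (-1.33 ± 0.41, limma adjusted p = 0.0115) that was not called without naive replicate 2 (adjusted p = 0.0572) and turned to 0.23 under spike-in scaling. Nor was this fall called after quantile normalization (-0.70, adjusted p = 0.128) or median centring (-0.71, adjusted p = 0.117).

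Isg20, an exonuclease that degrades viral RNA, was 2233, 684 and 814 in naive cells, 47.5 to 308 with Ag-B7 and a narrow 3014, 3269 and 3070 with interferon. Its 2.81-fold rise over naive (1.49 ± 0.46, limma adjusted p = 0.0116) leaned on the spread of the naive arrays, and without naive replicate 2 it was 1.18 with an adjusted p of 0.0573. Ifi35, an interferon-induced leucine zipper protein, was the exception among the raised genes, since Ag-B7 alone left it at 1651 to 1919, inside the naive range of 1252 to 2428. With interferon it was 5414, 4666 and 3462, which is 2.40-fold above naive (1.26 ± 0.23, limma adjusted p = 0.000278).

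Trim30a, a regulator of inflammatory signalling, and Lgals9, the lectin galectin-9, completed the class above naive with small margins. Trim30a was 1145, 698 and 884 in naive cells and 1727, 1458 and 1444 with interferon (0.76 ± 0.27, limma adjusted p = 0.0258). Lgals9 was 5286, 4054 and 2785 against 6711, 6136 and 5261, with 1 naive array just above the lowest interferon array (0.61 ± 0.22, limma adjusted p = 0.0263). Each lost its call when naive replicate 3 was left out (Trim30a 0.75, adjusted p = 0.0552; Lgals9 0.37, adjusted p = 0.157), and Trim30a also without naive replicate 2 (0.59, adjusted p = 0.0859). Trim30a was not called either without Ag-B7+IFNa/b replicate 1, 2 or 3 (adjusted p = 0.093, 0.0509 and 0.0504) or with the mean of its probe sets (0.40). Lgals9 was not called without Ag-B7+IFNa/b replicate 1 or 2 (adjusted p = 0.0939 and 0.0651), after quantile normalization (0.41), with the mean of its probe sets (0.18) or on the 6 arrays alone (adjusted p = 0.0651). A dimmer probe set of Lgals9 had the opposite sign.

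The middle class holds antiviral genes whose interferon arrays lay near the naive ones. Rsad2, or viperin, an enzyme that makes a chain-terminating nucleotide, was 1247, 278 and 451 in naive cells, 14.6 to 145 with Ag-B7, and 1189, 893 and 675 with interferon. It was 10.3-fold above Ag-B7 (3.37 ± 0.47, limma adjusted p = 0.000941), while its difference from naive was 0.67 with a 95% interval of -0.39 to 1.72. Mx1, a dynamin-like GTPase against influenza viruses, was 564, 425 and 327 in naive cells, 22.1 to 50.8 with Ag-B7 and 634, 804 and 643 with interferon. All 3 interferon arrays of Mx1 lay above the naive ones, yet the difference of 0.63 was not called (95% interval -0.29 to 1.55). Mx1 was called above naive after quantile normalization (1.17, limma adjusted p = 0.0393), median centring (1.25) and spike-in scaling (2.20).

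Ifit1, which binds viral RNA lacking a host cap, was 1529, 267 and 299 in naive cells, 5.61 to 46.5 with Ag-B7 and 461, 632 and 838 with interferon. Here naive replicate 1 was higher than every interferon array and the other naive arrays were lower than all of them. The difference of 0.28 (95% interval -0.82 to 1.38) became -0.13 without naive replicate 2 and -0.062 without naive replicate 3, and without naive replicate 1 it was called at 1.03 (limma adjusted p = 0.0452). Rsad2 was also called without that replicate, at 1.23 (limma adjusted p = 0.0370). Ifih1, the RNA sensor MDA5, was 835, 855 and 595 in naive cells and 937, 932 and 1075 with interferon (0.36, 95% interval -0.24 to 0.96).

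Mx2 was 514, 465 and 576 in naive cells and 592, 460 and 359 with interferon, with a difference of -0.15 (95% interval -0.88 to 0.58). For Lgals3bp, a secreted glycoprotein, the interferon arrays reached 1966, 2491 and 3112 against 3339, 3225 and 3076 in naive cells, at -0.37 (95% interval -0.89 to 0.15). Adar, which edits adenosines in double-stranded RNA, was at 0.34 (95% interval -0.18 to 0.86), and its dimmer probe set had the opposite sign. A missed threshold does not show that these levels equal the naive ones, and the intervals allow for differences of either sign.

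The 3 genes of the lower class had been high in naive cells. Irf7, the transcription factor that amplifies interferon production, was 4382, 2472 and 3493 in naive cells, 74.6 to 126 with Ag-B7, and 893, 1082 and 944 with interferon. Its groups did not overlap: interferon raised it 7.46-fold over Ag-B7 (2.90 ± 0.34, limma adjusted p = 0.000184) and left it 3.35-fold below naive (-1.74 ± 0.36, limma adjusted p = 0.000762). Ifit3 was 1975, 739 and 775 in naive cells, 24.1 to 47.9 with Ag-B7 and only 201, 243 and 353 with interferon, 3.57-fold below naive (-1.84 ± 0.40, limma adjusted p = 0.000996). Slfn1, a Schlafen gene linked to growth arrest of T cells, was 3674, 3447 and 4587 in naive cells and 2422, 2001 and 2080 with interferon (-0.83 ± 0.28, limma adjusted p = 0.0186). Slfn1 was not called without naive replicate 3 (-0.71, adjusted p = 0.0716), without Ag-B7+IFNa/b replicate 2 or 3 (adjusted p = 0.057 and 0.051) or after median centring (-0.21, adjusted p = 0.604), and lay at 1.00 under spike-in scaling.

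How many genes regain, exceed or miss the naive level depends on how arrays are put on a common scale. The counts above, not called and below were 7, 7 and 3 as deposited, 7, 7 and 3 after quantile normalization, 10, 5 and 2 after median centring and 14, 3 and 0 after spike-in scaling. The equal counts after quantile normalization hide an exchange, with Mx1 above naive in place of Lgals9. Median centring added Mx1, Ifih1 and Adar to those above. Usp18, Isg15, Ifitm3, Isg20, Ifi35 and Trim30a were called above naive in all 4 scalings. Irf7 and Ifit3 were called below naive in 3 of the 4, and under spike-in scaling lay at 0.065 and -0.16. Leaving out naive replicate 1, 2 or 3 gave 9, 5 and 3, then 5, 9 and 3, then 5, 10 and 2. Usp18, Isg15, Ifitm3 and Ifi35 were above naive in each of those fits too.

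**Figure D3:**
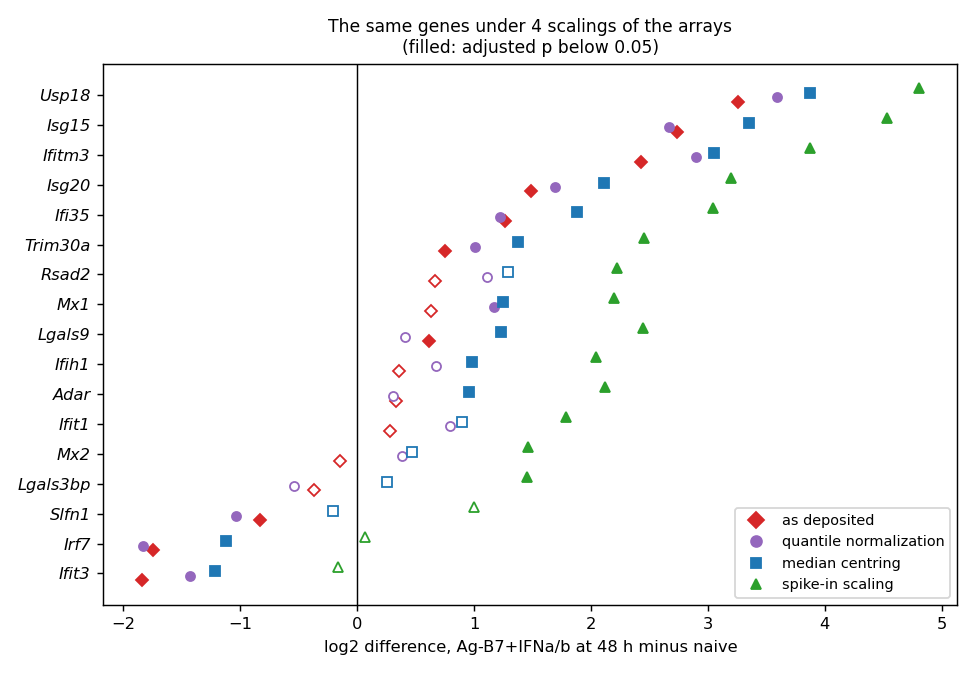
The log2 difference from naive, Ag-B7+IFNa/b at 48 h minus naive, is shown on the x axis for the same 17 genes under 4 scalings of the arrays, filled where the adjusted p is below 0.05. Spike-in scaling moves every gene to the right, and Irf7 shifts from -1.74 to 0.065, while Usp18 lies farthest to the right as deposited, at 3.25.

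The single arrays at 24 and 72 h give values of these 17 genes without a replicate check. With Ag-B7+IFNa/b, 6 of the 17 were below all naive arrays and 5 above them at 24 h. At 48 h all 3 arrays had to lie outside the naive range, and 3 genes were below and 8 above. By that rule 35.4% of all genes were below and 26.9% above. On the 1 array at 72 h 0 of the 17 were below, 12 above and 5 within the range. The rules differ between the times, so these counts are not read as a trend. Irf7 read 1055 at 24 h and 3463 at 72 h, Ifit3 read 163 and 1819, and Slfn1 read 2073 and 4335, so that at 72 h each lay inside its naive range. With Ag-B7 alone, 15 of the 17 were below all naive arrays at 24 h and 11 at 72 h. The 17 had been picked as raised over Ag-B7 at 48 h. No share of all genes was counted for these single arrays. Usp18 with interferon was already at 3888 at 24 h and at 10005 at 72 h.

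Of 9 receptor chains and carriers of the interferon signal, 6 were called lower than naive (66.7%, beside 33.1% of all genes) and 0 higher. Their median was -0.93. Under spike-in scaling 2 were lower and 3 higher (22.2% and 33.3%, beside 1.15% and 60.8% of all genes), with a median of 0.89. Ifngr2 and Ifngr1, the chains of the interferon-gamma receptor, fell most: Ifngr2 from 2055, 769 and 1546 to 52.7, 35 and 108 (13-fold, limma adjusted p = 3.54e-06), and Ifngr1 from 7092, 4455 and 7389 to 633, 725 and 625 (8.79-fold, limma adjusted p = 9.34e-07). Both kept this direction in all 4 scalings. Ifnar1, a chain of the type I receptor, was 2033, 1185 and 2389 in naive cells and 911, 978 and 978 with interferon (-0.88 ± 0.24, limma adjusted p = 0.00484), and it had fallen as far on Ag-B7 alone (-0.80 ± 0.22). The kinase Jak1 fell 3.34-fold and Stat3 2.39-fold, and under spike-in scaling Ifnar1, Jak1 and Stat3 had positive, uncalled differences of 0.89, 0.11 and 0.59.

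Irf9, the DNA-binding partner of STAT proteins, was 3772, 3370 and 2440 in naive cells, 622 to 940 with Ag-B7 and 1313, 1725 and 1905 with interferon. It remained 1.90-fold below naive (-0.93 ± 0.29, limma adjusted p = 0.0117), a call that was lost without Ag-B7+IFNa/b replicate 1 (-0.78, adjusted p = 0.0575). Under spike-in scaling Irf9 lay at 0.89, not called. Its difference from Ag-B7 was 1.10 ± 0.27 and was not called (adjusted p = 0.141).

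Of 6 interferon regulatory factors tested, 2 were higher than naive and 2 lower (33.3% each way, beside 25.3% and 33.1% of all genes). Spike-in scaling gave 4 higher (66.7%, beside 60.8% of all genes) and 0 lower. Irf4 and Irf8 rose, with interferon and on Ag-B7 alone. Irf4, induced by T cell receptor signals, went from 783, 760 and 653 to 10878, 14421 and 18832 (18.5-fold, limma adjusted p = 2.56e-06), beside 2351 to 15643 with Ag-B7. Irf8, a partner factor of effector CD8 T cells, went from 185, 399 and 406 to 3731, 4358 and 9787 (15.2-fold, limma adjusted p = 7.3e-07), beside 2993 to 8913 with Ag-B7. Neither difference between the interferon and the Ag-B7 arrays was called (Irf4 0.90 ± 0.44, 95% interval -0.04 to 1.84; Irf8 0.27 ± 0.37, 95% interval -0.51 to 1.04). Irf1 was lower than naive with interferon (-0.97 ± 0.34, limma adjusted p = 0.021). The call was lost without naive replicate 3 (-0.74, adjusted p = 0.101) and without Ag-B7+IFNa/b replicate 1 or 2 (adjusted p = 0.105 and 0.0577). It was also lost after median centring (-0.35, adjusted p = 0.466) and under spike-in scaling, where Irf1 lay at 0.86.

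The brakes of cytokine signalling divided on the deposited scaling, with 4 of 8 higher (50%, beside 25.3% of all genes) and 3 lower (37.5%, beside 33.1%). Spike-in scaling gave 5 higher (62.5%, beside 60.8% of all genes) and 0 lower. Beside Usp18, the phosphatase Ptpn6 (SHP-1) rose 3.15-fold and the suppressor Socs2 3.14-fold, as on Ag-B7 alone (3.01-fold and 3.16-fold). Socs1, which blocks JAK kinases, was 2088, 1107 and 1952 in naive cells and 2820, 2784 and 3922 with interferon (0.90 ± 0.33, limma adjusted p = 0.0268). That call was lost without naive replicate 2 (0.62, adjusted p = 0.127) and without Ag-B7+IFNa/b replicate 3 (0.74, adjusted p = 0.103). Socs3, which restrains IL-6 family signals, fell 5.40-fold, from 2557, 2432 and 3962 to 389, 498 and 646 (limma adjusted p = 3.22e-06), and under spike-in scaling was at -0.63, not called.

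Of 24 antiviral effector genes, 8 were higher than naive (33.3%, beside 25.3% of all genes) and 3 lower (12.5%, beside 33.1%), with a median of 0.58. On Ag-B7 alone 1 was higher and 16 lower. The higher ones not yet described were Nampt, an enzyme of NAD synthesis, at 2.73-fold (4622, 3358 and 3658 against 1966, 1015 and 1306), and Cmpk2, a mitochondrial nucleotide kinase next to Rsad2 in the genome, at 2.40-fold (834, 542 and 659 against 235, 260 and 260). Cmpk2 was not called without Ag-B7+IFNa/b replicate 1 (1.11, adjusted p = 0.0864) or 3 (1.27, adjusted p = 0.0532). Under spike-in scaling 20 of the 24 were higher (83.3%, beside 60.8% of all genes) and 0 lower.

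The interferon-inducible GTPases, which attack membranes around intracellular microbes, moved one way: 5 of 8 were higher than naive and 0 lower, with a median of 1.02, and 5, 8 and 8 were higher in the other scalings. Iigp1 went from 439, 919 and 876 to 2168, 2361 and 3600 (3.56-fold, limma adjusted p = 0.00119) and Irgm1 from 736, 963 and 857 to 1717, 1779 and 2338 (2.21-fold, limma adjusted p = 0.0053), both without overlap. Iigp1 and Irgm1 did not change on Ag-B7 alone by the test (0.39 ± 0.38 and -0.19 ± 0.29), and their differences between the interferon and Ag-B7 arrays were not called either (1.44 ± 0.38, adjusted p = 0.197, and 1.34 ± 0.29, adjusted p = 0.0598). Gbp7 (3.14-fold) and Gbp2 (2.37-fold) were as high on Ag-B7 alone within the error (2.48-fold and 2.49-fold).

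Of the genes of antigen presentation, Psmb9, Psmb8 and Tap1 rose, and B2m and H2-K1 were among those that fell on the deposited scaling. Psmb9, a subunit of the immunoproteasome, was 3729, 3404 and 2884 in naive cells and 12619, 7802 and 7018 with interferon (2.64-fold, limma adjusted p = 0.000383), and Psmb8 rose 1.78-fold. The related subunit gene Psmb10 was 4883, 5113 and 5034 against 6369, 3574 and 2685, overlapping and not called (-0.34, limma adjusted p = 0.308), and under spike-in scaling it was called higher, at 1.49. Tap1, the peptide transporter, rose 1.71-fold, with a dimmer probe set of the opposite sign. B2m, the light chain of class I molecules, went from 61217, 65954 and 51389 to 28099, 29377 and 33884 (1.95-fold lower, limma adjusted p = 0.0002), and H2-K1, the heavy chain that presents the OT-1 peptide, fell 1.71-fold. In all, 3 of 11 were higher (27.3%) and 4 lower (36.4%), near the 25.3% and 33.1% of all genes. Under spike-in scaling 9 were higher (81.8%, beside 60.8% of all genes) and 0 lower, with B2m at 0.90 and H2-K1 at 1.09. Of 3 RNA sensor and adaptor genes 0 were called in either direction, and of 3 Schlafen genes 2 were lower, Slfn1 among them. Members of the Ifit, Schlafen, class I and granzyme families have close relatives, and probe sets for them may read more than 1 gene.

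**Figure D4:**
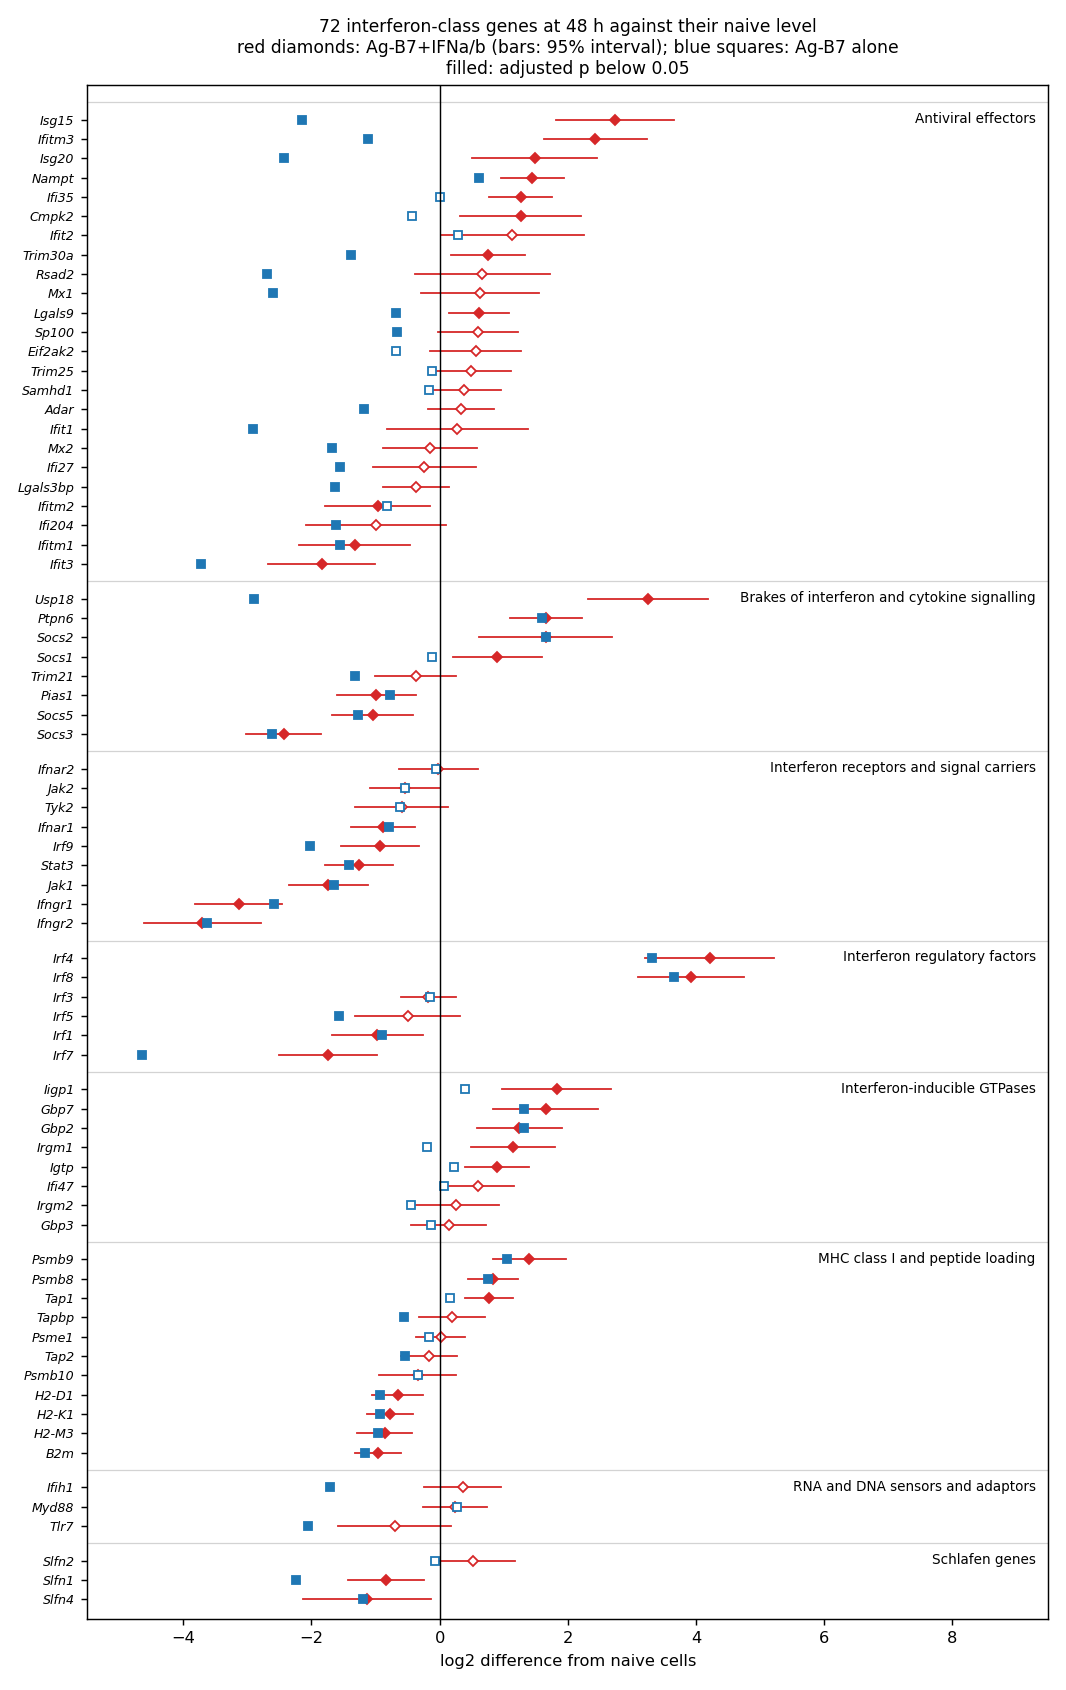
The log2 difference from naive on the x axis is given for each of the 72 interferon genes, in their 8 lists, with red diamonds and 95% intervals for Ag-B7+IFNa/b and blue squares for Ag-B7 alone, filled where the adjusted p is below 0.05. Usp18 lies at 3.25 with interferon and at -2.89 without it, whereas Ifngr1, Ifngr2, Irf4 and Irf8 have both marks on the same side.

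IL-12, the other cytokine of the third signal, gave a further reference. This comparison uses the same Ag-B7+IFNa/b arrays as the one with Ag-B7. Against Ag-B7+IL12, 59 genes differed (0.94%), 41 higher with interferon (0.653%) and 18 lower (0.287%), and 30 of the 41 belonged to the interferon lists. The largest was Isg15, at 421, 51.7 and 84.7 with IL-12 (82.1-fold, limma adjusted p = 4.14e-07). Iigp1 was 144, 67.7 and 50.6 with IL-12, below both naive and Ag-B7 arrays, and 21-fold higher with interferon (limma adjusted p = 1.15e-05). Of the 17 genes raised over Ag-B7, 14 were below all naive arrays on all 3 IL-12 arrays, and 15 were on all 4 Ag-B7 arrays. The 17 had been picked for being lower on those Ag-B7 arrays than with interferon. The share of all genes was not counted for IL-12, so the 14 is not read as a result about these genes.

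Outside the interferon lists, 9 genes were higher with interferon than with Ag-B7, and 5 of these were also above naive (Ifng, Serpinb9, Gpr65, Gm9706 and BC147527). Ifng, the gene of interferon-gamma, was 74.9, 20.3 and 32.8 in naive cells, 100 to 1171 with Ag-B7, and 2534, 1498 and 2742 with interferon, 25.9-fold over naive (4.69 ± 0.53, limma adjusted p = 2.45e-06) and 5.57-fold over Ag-B7 (limma adjusted p = 0.0278). IL-12 gave 7015, 6161 and 8274. Serpinb9, the inhibitor that protects killer cells from their own granzyme B, was 584, 1156 and 768 in naive cells and 5640, 7670 and 7654 with interferon (8.18-fold, limma adjusted p = 7.71e-06), against 1360 to 3315 with Ag-B7. Tmem71 was the 1 gene lower with interferon than with Ag-B7 (0.0159%), at 71, 37.1 and 186 against 298 to 895 and a naive 2432, 1632 and 1528.

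The largest rise over naive was that of Gzmb, granzyme B, the main protease of cytotoxic granules. It went from 244, 583 and 632 to 61005, 58059 and 40572, which is 105-fold (6.72 ± 0.28, limma adjusted p = 4.75e-11), and all interferon arrays lay above the Ag-B7 arrays at 20017 to 30967, although that difference was not called (0.97 ± 0.27, adjusted p = 0.234). Of 16 cytotoxic genes 6 were higher (37.5%, beside 25.3% of all genes) and 5 lower (31.2%, beside 33.1%). Spike-in scaling gave 11 higher (68.8%, beside 60.8% of all genes) and 1 lower. The death ligand Fasl rose 4.64-fold and the activating receptor Klrk1 (NKG2D) 4.68-fold. Prf1, the pore-forming perforin, was 1831, 1069 and 905 in naive cells and 1434, 1333 and 687 with interferon (-0.14 ± 0.40, 95% interval -0.98 to 0.71). Under spike-in scaling Prf1 was called higher, at 1.59. Gzma, a further granule protease, fell 5.94-fold, from 333, 818 and 483 to 48.5, 54.6 and 40.2, and was not called under spike-in scaling (-1.06, adjusted p = 0.0619). Klrd1, an inhibitory receptor chain, fell 8.09-fold.

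Of 15 cytokine and chemokine genes, 7 were higher (46.7%, beside 25.3% of all genes) and 5 lower (33.3%, beside 33.1%). Spike-in scaling gave 9 higher (60%, beside 60.8% of all genes) and 0 lower. After Ifng came the chemokines Ccl4 (166, 285 and 156 to 3045, 5869 and 7842, 21.6-fold), Ccl3 (16.6-fold) and Xcl1 (10.7-fold), which attract other leukocytes, and Lta, lymphotoxin alpha, at 17.4-fold with a dimmer probe set of the opposite sign. Among 20 cytokine receptors and STATs, 5 rose (25%, beside 25.3% of all genes) and 10 fell (50%, beside 33.1%). Under spike-in scaling 11 rose (55%, beside 60.8% of all genes) and 2 fell. Il2ra, the high-affinity IL-2 receptor chain, went from 12.2, 214 and 27 to 1064, 905 and 1547 (11.5-fold, limma adjusted p = 1.22e-05), Il12rb2, a chain of the IL-12 receptor, rose 8.60-fold and Il10ra 6.16-fold. Il7r, the chain for the survival cytokine IL-7, went from 7715, 3934 and 6602 to 914, 589 and 333 (9.61-fold lower, limma adjusted p = 3.25e-06), and Il6st, the shared chain of IL-6 family receptors, fell 7.73-fold.

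Costimulatory and inhibitory receptors rose in 12 of 17 cases and fell in 2, and none was called lower under median centring or spike-in scaling. Tnfrsf9 (4-1BB) rose 36.6-fold, with a dimmer probe set of the opposite sign, Tnfrsf4 (OX40) 26.4-fold, from 378, 255 and 332 to 14540, 7276 and 8276, and the checkpoint receptor Lag3 14.9-fold. Homing receptors went the other way, with 9 of 19 lower (47.4%, beside 33.1% of all genes) and 2 higher (10.5%, beside 25.3%). Under spike-in scaling 3 were lower and 8 higher (42.1%, beside 60.8% of all genes). Itgae, the integrin that holds T cells in epithelia, went from 1546, 720 and 824 to 28.9, 32.3 and 18.5 (14-fold lower, limma adjusted p = 1.55e-06). Ccr9, a gut homing receptor, fell 8.30-fold, S1pr1, the receptor for leaving lymph nodes, 7.70-fold, and Ccr7, the receptor for entering them, 3.39-fold, with Ccr7 at 0.092 under spike-in scaling.

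Genes of the naive state and quiescence were lowered on the deposited scaling: 21 of 24 fell and 0 rose, with a median of -1.60. Klf2, the quiescence factor that drives S1pr1, was 12461, 5071 and 6006 in naive cells and 94.4, 114 and 117 with interferon (47.2-fold lower, limma adjusted p = 1.78e-07). Cd7, a T cell surface protein, fell 42.3-fold, Vps37b, an endosomal sorting factor, 21-fold, and the antiproliferative gene Btg1 8.37-fold. With median centring 12 of the 24 were lower and 1 higher, and with spike-in scaling 7 lower and 4 higher. Of 34 fate transcription factors 17 fell (50%, beside 33.1% of all genes) and 4 rose (11.8%, beside 25.3%). Under spike-in scaling, where 60.8% of all genes were higher, 2 fell and 16 rose (47.1%). The risers were led by Bhlhe40, which goes with cytokine production by effector T cells, from 190, 97.2 and 556 to 7226, 5048 and 7535 (23.9-fold, limma adjusted p = 1.6e-06), and by Batf3 (6.42-fold). Eomes, which drives effector and memory CD8 fates, was 555, 513 and 718 in naive cells and 931, 1033 and 1202 with interferon, without overlap but not called (0.79 ± 0.55, 95% interval -0.38 to 1.96). It was called under median centring (1.41) and spike-in scaling (2.44). Tbx21 was not measured under a single symbol.

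The deepest fall of all named genes was that of Tnfaip3 (A20), the ubiquitin-editing brake of NF-kappaB, from 17767, 7860 and 10030 to 276, 49.7 and 361 (48.3-fold lower, limma adjusted p = 5.34e-08). Of 27 immediate early and heat shock genes 13 fell and 5 rose (48.1% and 18.5%, beside 33.1% and 25.3% of all genes), against 2 and 15 under spike-in scaling. Among the risers were the transcription factor Atf3, from 335, 1334 and 602 to 3011, 2021 and 3937 (4.19-fold, limma adjusted p = 0.00298), of which another probe set had the opposite sign, and Ier3 (4.05-fold). Fos went from 14894, 7474 and 3876 to 217, 220 and 537 (22.1-fold lower, limma adjusted p = 5.73e-07) and Dusp1, a phosphatase of MAP kinases, fell 8.88-fold. Of 25 survival and apoptosis genes 7 rose and 7 fell, which is 28% each way beside 25.3% and 33.1% of all genes, with Birc5 (survivin) at 23.7-fold higher. Spike-in scaling gave 20 higher (80%, beside 60.8% of all genes) and 1 lower.

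Genes of growth and division rose together, and their direction held in all 4 scalings. In the cell cycle and DNA replication list 48 of 57 were higher than naive and 1 lower, with a median of 2.16. Cdk1, the mitotic kinase, went from 121, 131 and 85.6 to 6766, 6626 and 6676 (42.8-fold, limma adjusted p = 6.63e-12), Top2a, a DNA topoisomerase, rose 35.7-fold and Cks1b, a CDK subunit, 33.2-fold. Ag-B7 alone gave 6755 to 8356 for Cdk1, and 0 genes of the list differed between interferon and Ag-B7. Of 20 glycolysis genes 16 rose and 1 fell, with Tpi1, a triosephosphate isomerase, at 18.7-fold and Hk2, a hexokinase with a dimmer probe set of the opposite sign, at 14.2-fold. Ribosome biogenesis and MYC targets gave 30 higher of 37 and 0 lower, including Myc, from 696, 419 and 469 to 4976, 5208 and 7987 (10.6-fold, limma adjusted p = 1.56e-06).

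Biosynthesis followed, with 15 of 19 cholesterol synthesis genes higher and 1 lower, led by the desaturase Scd2 (19-fold) and the isomerase Idi1 (15.8-fold). Of 29 genes of amino acid supply and endoplasmic reticulum stress 18 rose and 7 fell, with the serine synthesis enzyme Psat1 at 13.5-fold. Chromatin modifiers gave 15 higher of 25 and 2 lower, with Uhrf1, which guides maintenance DNA methylation, at 19.4-fold and the histone methyltransferase Ezh2 at 7.65-fold.

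**Figure D5:**
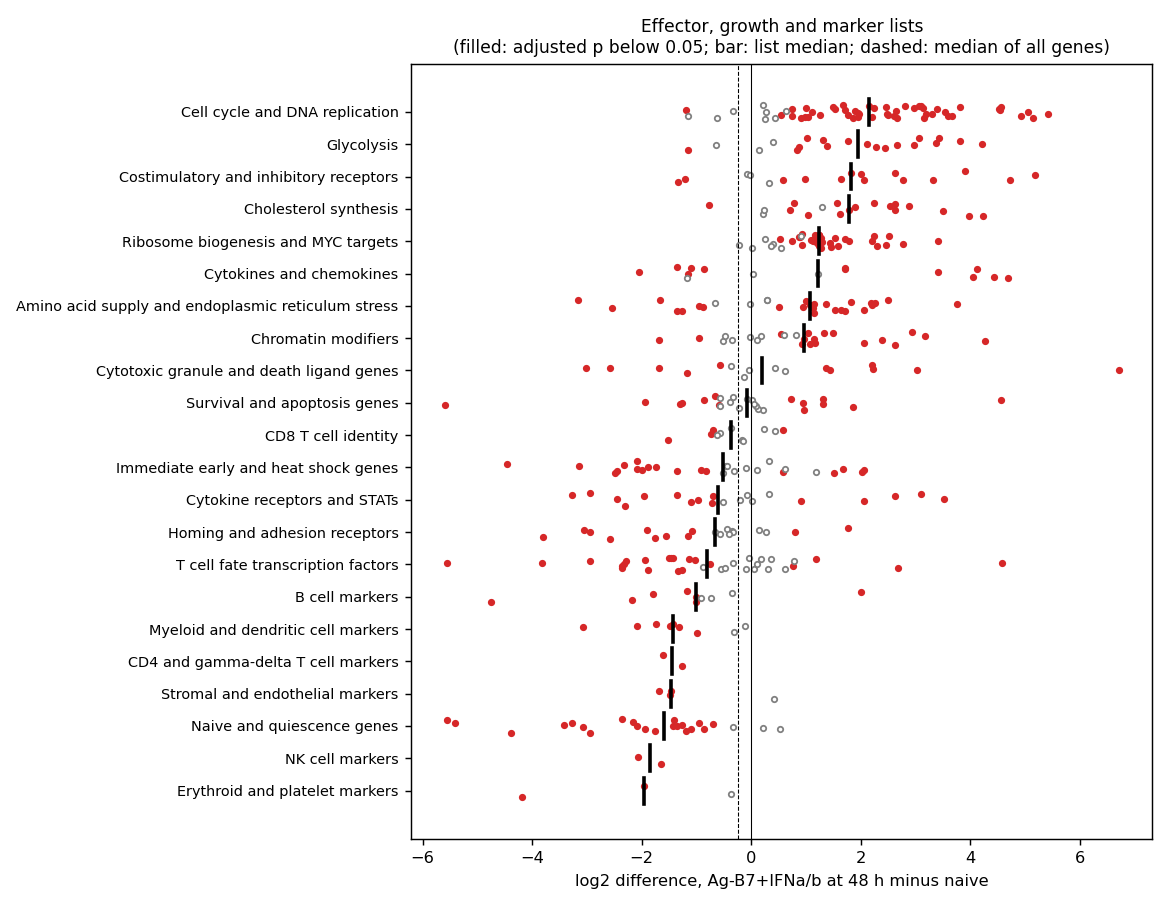
Each point is a gene of an effector, growth or marker list, placed by its log2 difference, Ag-B7+IFNa/b at 48 h minus naive, and filled where the adjusted p is below 0.05. Black bars are list medians and the dashed line is the median of all genes at -0.25. Cell cycle and glycolysis lie at the right with medians of 2.16 and 1.94, and the naive list and the markers of other cells lie at the left.

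Markers of other cell types moved with the comparison. Of 30 such markers tested, 22 were lower than naive with Ag-B7+IFNa/b and 1 was higher, with a median of -1.44. Of all genes 33.1% were lower and 25.3% higher. Under spike-in scaling 3 markers were lower and 4 higher, beside 1.15% and 60.8% of all genes. The summed intensity of B cell markers was 16964 to 32646 on naive arrays and 7575 to 9758 on interferon arrays, and of myeloid markers 15133 to 19443 and 4826 to 5132. For erythroid and platelet markers it was 7397 to 15302 and 652 to 920, with the haemoglobin chain Hba-a1 18.1-fold lower. For NK cell markers the sums were 545 to 1470 and 197 to 258, for CD4 and gamma-delta T cell markers 2391 to 5088 and 1030 to 1552, and for stromal markers 5093 to 13223 and 2423 to 3990. Their part in the differences from naive, interferon genes included, was not tested. Cd8a, the coreceptor chain that defines the labelled cells, was 14482, 9883 and 8015 in naive cells and 8805, 9816 and 9795 with interferon (-0.15 ± 0.20, and 1.71 under spike-in scaling). The groups overlapped for Cd8a, and 1 of 11 genes of CD8 identity was higher and 3 lower, against 10 higher and 0 lower under spike-in scaling.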

How the data were processed

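Affymetrix arrays of mouse CD8 T cells were analysed from the deposited table of 20 arrays and 12488 probe sets. The deposited values are linear MAS5 intensities, per the submitters' processing notes, and neither the software version nor the target intensity of the scaling is stated in the labels. Of the probe sets, 10833 have 1 gene symbol in the platform annotation, 396 several, 1193 were not listed and 66 are controls. The brightest probe set stood for each of 8251 genes, and 2073 genes had several. Values were taken as log2(intensity + 46.4), the pseudocount being the median over arrays of the 20th percentile. Genes above the 40th percentile on at least 3 of 13 replicated arrays were tested with limma 3.58.1 (R 4.3.3): group means of naive, Ag-B7, Ag-B7+IL12 and Ag-B7+IFNa/b at 48 h, moderated with a trend, two-sided, Benjamini-Hochberg adjustment over 6279 genes. The fit was also run on simulated data with the same spread for a gene in every group and few genes changed. These data differ in both, so that run does not test the calls made here. The arrays at 24 and 72 h, 1 per group, were described only. P-values measure the spread between arrays within groups, pooled over the 4 groups, and the number of arrays limits the precision. The naive arrays spread more than the others, so the pooled error may be too small for differences from naive. On the 6 arrays alone 3275 genes were called against naive, 1385 higher and 1890 lower.

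The comparison and the 31 gene lists were chosen with earlier results of these data known. Named genes are those with the largest called rises and falls overall and within each list, every interferon gene raised over Ag-B7, and a few genes of known role. Gm9706, Gpr65, BC147527, Xcl1, Ccr7 and Btg1 were added after their values were seen. Alternatives covered scaling, pseudocount, filter, probe set summary, the 6 arrays alone, a replicate block and leaving out arrays. Promoter sequences are from RefSeq on GRCm38.p6.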

Additional observations from a re-analysis of the deposited data

Results flagged for a closer look

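Among the 17 interferon genes raised over Ag-B7, each examined in the group of 4 Ag-B7 arrays at 48 h, 1 had a sample far from the others. The lowest Ag-B7 array for Ifi35 was at 10.73 on the log2 scale, with a gap to the next array that made up 0.834 of the group's range. Chance alone sets apart about 1 in 20 such groups.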

How the results depend on the processing

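Median centring gave 2451 genes higher and 896 lower than naive, 37 interferon genes above and 6 below naive, 24 lower on Ag-B7 alone, 17 genes higher with interferon than with Ag-B7, 12 of them lower on Ag-B7 alone, and 1 raised interferon gene below naive. Spike-in scaling gave 3817 higher and 72 lower, 52 interferon genes above and 2 below, 32 higher and 7 lower on Ag-B7 alone, 6 raised genes lower on Ag-B7 alone, 0 raised interferon genes below naive, and 11 genes lower than with IL-12. Quantile normalization gave 2 genes lower than with Ag-B7, and the stricter filter, which tests fewer genes, 1341 lower than naive. The cause of the other changes was not tested. Raised genes were counted anew in each setting of this section. The earlier counts, such as 2 below naive under median centring, are for the fixed 17 genes.

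Differences from naive changed sign under quantile normalization for Mx2 (0.39) and Prf1 (0.023), under median centring for Cd8a (0.47), Lgals3bp (0.25), Mx2 (0.47), Prf1 (0.48) and Psmb10 (0.28), and with the mean of probe sets for Adar (-0.094) and Tap1 (-0.34). Under spike-in scaling they did so for B2m (0.90), Ccr7 (0.092), Cd8a (1.71), H2-K1 (1.09), Ifitm1 (0.23), Ifnar1 (0.89), Irf1 (0.86), Irf7 (0.065), Irf9 (0.89), Jak1 (0.11), Lgals3bp (1.45), Mx2 (1.46), Prf1 (1.59), Psmb10 (1.49), Slfn1 (1.00) and Stat3 (0.59). Median centring also ended the calls of B2m, Ccr7, H2-K1, Ifnar1, Irf1, Irf9, Ifitm1, Slfn1 and Stat3.

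Leaving out 1 array at a time gave 3035 to 3815 genes called against naive, 1400 to 1673 higher and 1635 to 2142 lower, with 19 to 28 interferon genes above and 17 to 20 below. On Ag-B7 alone 8 to 10 interferon genes were higher and 36 to 41 lower. Against Ag-B7, 14 (without Ag-B7+IFNa/b replicate 2) to 27 genes were higher, 12 to 17 of them interferon genes, and 0 to 6 lower (6 without Ag-B7 replicate 4). Of the raised genes 14 to 22 were lower on Ag-B7 alone, and of the raised interferon genes 4 to 10 were above naive (4 without Ag-B7+IFNa/b replicate 1) and 1 to 3 below. Against IL-12, 31 to 52 were higher and 11 to 28 lower (28 without naive replicate 2). Signs turned for Ifit1 without naive replicate 2 (-0.13) or 3 (-0.062; the range without 1 array is -0.13 to 1.03), for Cd8a (0.088) and Prf1 (0.15) without naive replicate 1, and for Mx2 (0.015, in a range from -0.31) and Prf1 (0.18) without Ag-B7+IFNa/b replicate 3. Leaving out naive replicates 2 and 3 together, an alternative chosen after seeing the data, gave 2163 called and 1021 lower, 13 interferon genes above and 13 below, 5 higher on Ag-B7 alone, 5 genes lower than with Ag-B7, Ifit1 at -1.23 and Rsad2 at -0.46.

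Same-numbered naive and Ag-B7+IFNa/b arrays deviated together with correlations of 0.136, 0.216 and 0.0525. Arrays with different numbers were not compared, so whether the replicate numbers pair the samples was not settled. With the replicate number as a block 3760 genes were called against naive, 1630 higher and 2130 lower, and 7 were lower than with Ag-B7.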
